A study of Mus musculus with 4 samples.

Results

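Neurotrophins are secreted growth factors that keep neurons alive and adjust their synapses. They are made as precursors, cut to mature ligands, and bind Trk receptor tyrosine kinases with high affinity and the p75 receptor with lower affinity. In the cortex BDNF is known as an activity-dependent product of excitatory neurons, and its receptor TrkB also has a short form without the kinase that is abundant in astrocytes. Described here are 6 of the 33696 gene features of the deposited tables, taken by name: the ligand genes Bdnf (brain-derived neurotrophic factor) and Ntf3 (neurotrophin-3), the Trk receptor genes Ntrk2 (TrkB, receptor of BDNF and NT-4) and Ntrk3 (TrkC, receptor of neurotrophin-3), the p75 receptor gene Ngfr, and Sort1 (sortilin, a sorting receptor that binds proneurotrophins together with p75). Each symbol matched 1 feature. Their unique molecular identifiers (UMIs) were counted in all 4 matrices, by cell type, fibroblast state, region and library.

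The nuclei came from mouse brains at 21 days after photothrombotic (PT) injury, a focal cortical ischaemia made by illuminating the skull after Rose Bengal injection. The library labelled control came from WT mice by its label, while the study's methods describe the controls of its conditional knockouts in general as littermates without Cre or with 1 floxed allele. The library labelled Cxcl12-cKO came from Col1a2(creER); Cxcl12(flox) mice, in which a tamoxifen-inducible Cre under a collagen promoter acts in fibroblasts, only part of which it recombines by the study's own lineage tracing. That tracing gave tamoxifen before injury, while the study's Cxcl12-cKO scheme gives it from the day of injury on. The recombined share in these mice is therefore not known here. In each library tissue of 1 male and 1 female mouse was tagged by region, mixed at 75% lesion and 25% parenchyma (perilesional cortex), sorted on DAPI and run on 1 Chromium 3′ channel. There is thus 1 library per genotype, no uninjured sample, and no test of genotype. Cxcl12 itself was not lower in the library labelled Cxcl12-cKO, at 215 CPM (UMIs scaled to the same total for every group of nuclei) in lesional fibroblast-like nuclei on 3143 UMIs against 106 on 1511 UMIs in the library labelled control, and because no source used here says which exons are floxed, these 3′ counts check nothing.

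A filter on UMIs, genes and mitochondrial share kept 21743 of 23489 barcodes, with a median of 2962 and 2975 UMIs per nucleus in the control and Cxcl12-cKO lesion and 15915 and 16648 in the parenchyma. Between libraries 1 to 22 barcodes were shared per pair of matrices, and none between the regions of a library. Cell types are clusters named from marker lists, written as "X-like". Levels are CPM of the summed nuclei with an exact 95% Poisson interval, and shares of nuclei have exact binomial (Clopper-Pearson) intervals. All of these cover counting error only, and a few nuclei that hold many UMIs are not allowed for. A level of 1 gene is compared here with the same gene in other cells, not with another gene, since no length correction was made. The counts sum the full-length and the kinase-lacking forms of Ntrk2 and Ntrk3. In summed nuclei of a mixed class, fewer nuclei of a subtype and less RNA per nucleus cannot be told apart.

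The members fell into well-covered and nearly silent genes. Kept nuclei held 88335 UMIs of Ntrk2, 84350 of Ntrk3, 19176 of Sort1, 4019 of Bdnf and 688 of Ntf3. Ngfr had 19 UMIs in 19 nuclei. Excitatory-neuron-like nuclei, the deepest class, held 87.8% of the Bdnf, 86.0% of the Ntf3, 72.6% of the Ntrk2, 72.5% of the Sort1 and 66.9% of the Ntrk3 UMIs. Fibroblast-like nuclei held 13.8% of the Ntrk3 UMIs, a larger part than of Bdnf (3.66%), Ntrk2 (2.57%) or Sort1 (5.56%).

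**Figure D1:**
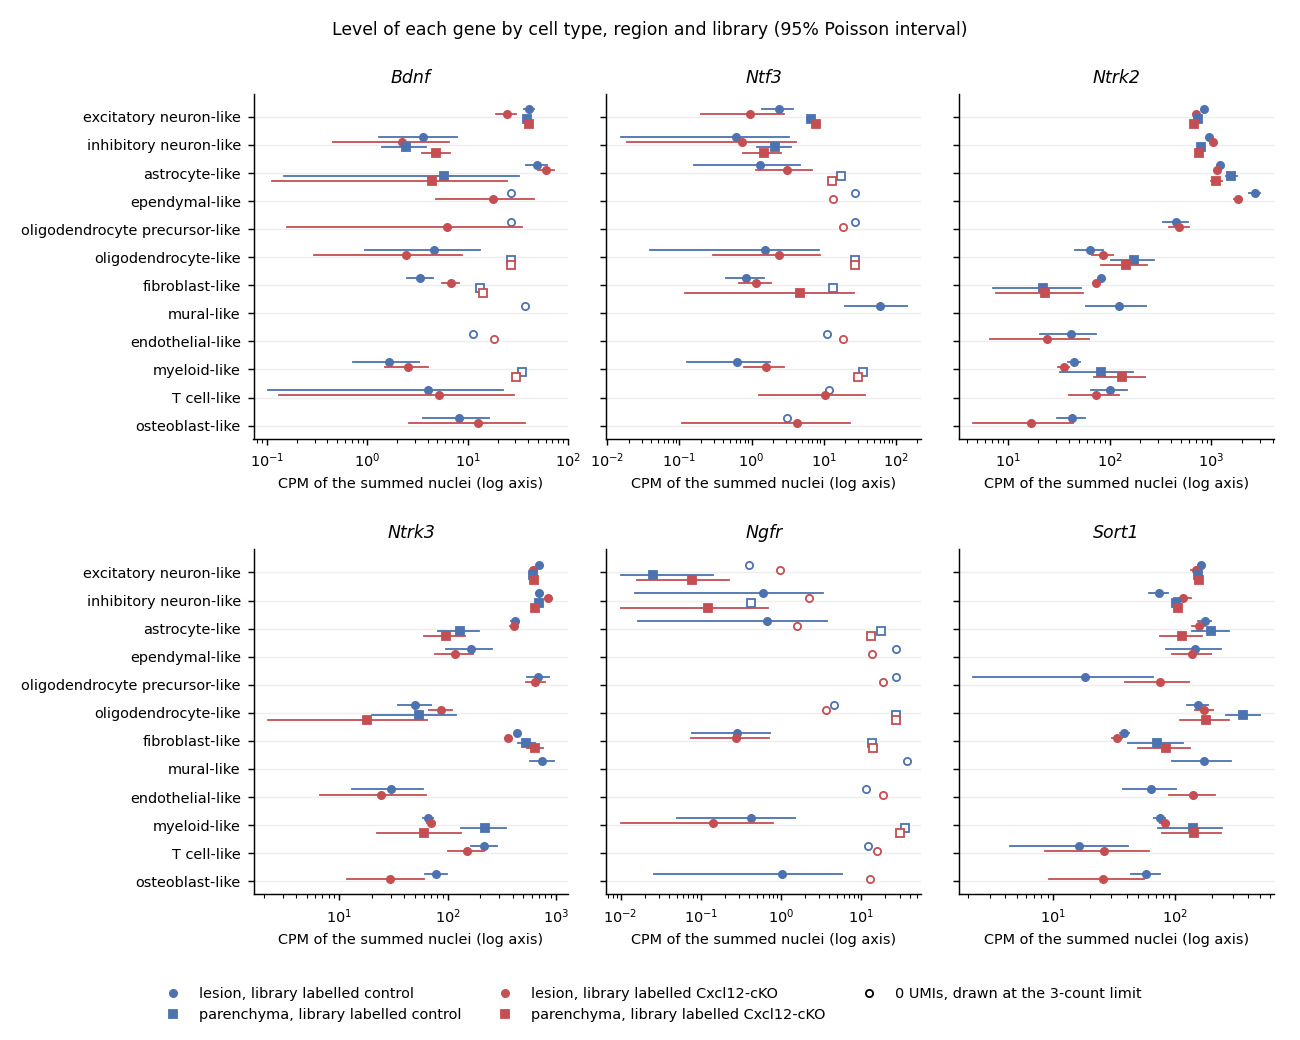
Level of the 6 genes in each cell type, in CPM of the summed nuclei on a log axis that differs between panels, by region (circle lesion, square parenchyma) and library (blue labelled control, red labelled Cxcl12-cKO). Bars are 95% Poisson intervals and open symbols mark sums with 0 UMIs, drawn at the limit that a count of 0 allows, while sums of under 20 nuclei are left out; Bdnf is highest in lesional astrocyte-like and in excitatory-neuron-like nuclei, and Ngfr is at 1.03 CPM or below in every sum with a UMI.

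Bdnf, the main activity-regulated ligand of the family, stood highest in astrocyte-like and excitatory-neuron-like nuclei. Astrocyte-like nuclei had 50.3 CPM (43.4 to 57.9, 192 UMIs) and excitatory-neuron-like nuclei 39.4 CPM (38.1 to 40.7, 3527 UMIs). The intervals of these classes did not overlap. The next levels, 17.3 CPM in mural-like nuclei on 3 UMIs and 10.8 in ependymal-like nuclei on 4, have intervals that overlap their neighbours. Fibroblast-like nuclei stood at 5.03 CPM (4.25 to 5.91), inhibitory-neuron-like at 3.62, myeloid-like at 2.16 (1.41 to 3.17), and endothelial-like nuclei had 0 UMIs, which allows up to 7.85 CPM. The first place of astrocyte-like nuclei did not hold in the alternative without the barcode filter, where excitatory-neuron-like nuclei were highest. That alternative also used the classes before glia were split. The astrocyte-like class then counts 1437 kept nuclei in place of 913, so the part of the filter alone was not tested.

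In astrocyte-like nuclei Bdnf was a lesional signal. It stood at 48.9 CPM (38.4 to 61.4, 74 UMIs in 407 nuclei) in the lesion of the library labelled control and at 60.8 (50.3 to 73.0, 116 UMIs in 427 nuclei) in the Cxcl12-cKO-labelled lesion. In the parenchyma it stood at 5.87 and 4.40 CPM, on 1 UMI in each library from 35 and 44 nuclei. Lesion lay above parenchyma in both libraries, by a log2 difference of 3.32 ± 0.70 (SE) in edgeR's quasi-likelihood fit of 4 sums with the library as block (adjusted p = 0.00249), with 10.7% of 9693 genes called higher and 9.63% lower in the lesion in this class (1218 and 820 genes without the normalization factors, against 1034 and 933). DESeq2 on the same sums gave 3.34 with adjusted p = 0.106, so this call rests on the tool. The 4 sums share mice and libraries across regions. Both tools steady the spread of a gene with that of all genes tested. The p-values therefore do not rest on the spread between these 4 sums of a gene alone. The SE of edgeR was worked back from the F statistic of its test.

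The lesional astrocyte-like Bdnf came almost whole from 1 of 3 astrocyte-like subclusters. This was subcluster 5, led by Ptx3 and Tnfsf11, with 154 and 277 lesional nuclei in the libraries labelled control and Cxcl12-cKO and 3 parenchymal nuclei in all. There Bdnf reached 95 CPM (73.6 to 121, 67 UMIs) and 81.4 CPM (67.1 to 97.8, 114 UMIs), so that 181 of the 190 lesional astrocyte-like UMIs (95.3%) lay in it. Subcluster 3 (Zim1, Gpr179) stood at 11.9 and 4.67 CPM on 7 and 2 UMIs. Subcluster 4 (Slc7a10, Gpc5) held 0 UMIs in its 80 lesional nuclei and 2 in its 75 parenchymal ones. Of the parenchymal astrocyte-like nuclei 94.9% were in subcluster 4, against 9.59% of the lesional ones, so the regional difference of Bdnf was also one between subclusters. Within subcluster 4 no higher lesional level was detectable at this depth, with 0 UMIs allowing up to 16.8 CPM in the lesion of the library labelled control.

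The signal was spread over nuclei. A Bdnf UMI was seen in 19.5% and 21.3% of subcluster 5 nuclei, 30 of 154 and 59 of 277, at median depths of 4191 and 4391 UMIs, and 1 nucleus held at least 10. In lesional myeloid-like nuclei, a class of low Bdnf level set beside it for comparison, the share was 0.632% (0.413 to 0.924) at a median depth of 2290. In lesional endothelial-like nuclei it was 0 of 156, which allows up to 2.34%, at a median depth of 2214. The share that free RNA gives was not measured. Nuclei with at least 1000 UMIs were also thinned to 1000, and those with fewer were left out. The thinned shares were 8.50% and 5.45% in subcluster 5, 2.72% in lesional excitatory-neuron-like and 0.18% in lesional myeloid-like nuclei. Of the nuclei with Bdnf in subcluster 5, 4 and 2 had doublet scores in the top 10% of their library. Summed excitatory neuron markers stood at 143 and 138 CPM in subcluster 5, at 80.0 and 77.1 in subcluster 3 and at 98.6 and 86.8 in parenchymal subcluster 4, against 1972 and 2108 in lesional excitatory-neuron-like nuclei, and their part in the Bdnf level was not tested. Taken by mouse, Bdnf in subcluster 5 stood at 141 CPM in the female and 41.6 in the male of the library labelled control, on 55 and 8 UMIs, and at 70.8 and 83.8 in the female and male of the library labelled Cxcl12-cKO, on 37 and 43 UMIs. All 4 mice lay above the 11.9 CPM of subcluster 3, though the interval of the control male (18.0 to 82.0) overlapped that of subcluster 3 (4.79 to 24.5).

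**Figure D2:**
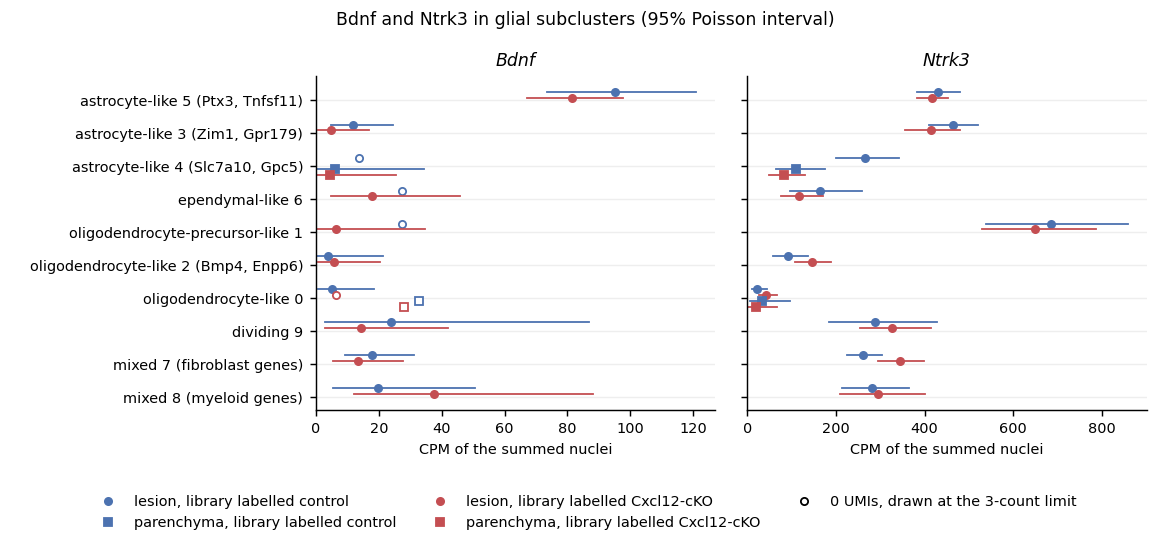
Bdnf (left) and Ntrk3 (right) in glial subclusters, in CPM of the summed nuclei, by region (circle lesion, square parenchyma) and library (blue labelled control, red labelled Cxcl12-cKO), with 95% Poisson intervals and open symbols at the limit of 0 UMIs; sums of under 20 nuclei are left out. For Bdnf, astrocyte-like subcluster 5 is highest in both libraries at 95 and 81.4 CPM, with intervals that overlap only those of the small dividing and mixed 8 subclusters, while its Ntrk3, at 430 and 417 CPM, is near that of subcluster 3 at 463 and 414.

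Ntf5, the gene of the other TrkB ligand NT-4, had 19 UMIs in all kept nuclei.

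In excitatory-neuron-like nuclei Bdnf ranged widely over subtypes. In the parenchyma layer 6 intratelencephalic-like nuclei were highest at 120 and 77.9 CPM in the libraries labelled control and Cxcl12-cKO. Upper-layer-like nuclei followed at 67.6 and 67.9. Middle-layer-like nuclei stood at 30.7 and 31.5 and layer 5 extratelencephalic-like at 22.9 and 33.6. At the low end were layer 6 corticothalamic-like (9.0 and 10.6), layer 5/6 near-projecting-like (6.79 and 6.33) and layer 6b-like nuclei (1.60 and 1.90). The unnamed subclusters 0, 8, 10 and 11 ranged from 31.1 to 57.1 CPM over both libraries, and the mixed subcluster stood at 61.0 and 6.48, on 54 and 5 UMIs. The order of the named subtypes was the same in both libraries apart from the middle-layer-like and layer 5 extratelencephalic-like pair. The intervals of that pair overlapped, as did those of near-projecting-like nuclei with their neighbours, and in the library labelled Cxcl12-cKO those of the first and second place. Upper-layer-like nuclei lay above middle-layer-like ones, and layer 5 extratelencephalic-like above layer 6 corticothalamic-like ones, in both libraries.

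A part of the Bdnf UMIs of excitatory-neuron-like nuclei was bunched in few nuclei. Their median depths in the parenchyma, 17478 and 18410 UMIs, lay above those of astrocyte-like subcluster 5. Counts of nuclei with at least 10 Bdnf UMIs are therefore not compared between the 2 groups. In the parenchyma 589 of 2192 and 565 of 2082 excitatory-neuron-like nuclei had 1 or more, and 24 and 27 nuclei with at least 10 each held 20.4% and 23.9% of all Bdnf UMIs of the class, up to 31 in a nucleus. In the lesion of the library labelled control 6 of 502 nuclei held 29.4%, and in that of the other library 1 of 235 held 13.0%. Inhibitory-neuron-like nuclei had Bdnf at 2.42 and 4.89 CPM in the parenchyma, with 17 of the 40 UMIs behind the second value in 1 nucleus.

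Lesional excitatory-neuron-like nuclei as a whole had no detectable difference of Bdnf from parenchymal ones. The values were 40.9 and 24.6 CPM in the lesion and 39.0 and 40.7 in the parenchyma for the libraries labelled control and Cxcl12-cKO, so that the library labelled control had near equal levels and the other a lower one in the lesion. The edgeR fit gave log2 −0.13 ± 0.14 (adjusted p = 0.505). Upper-layer-like nuclei went the same way in both libraries, at 51.6 against 67.6 CPM (log2 −0.38, −0.70 to −0.09) and 16.6 against 67.9 (log2 −1.97, −2.99 to −1.22, on 12 lesional UMIs). Layer 5 extratelencephalic-like nuclei of the library labelled control went the other way, at 56.5 against 22.9 CPM (log2 1.31, 0.60 to 1.97) on 28 UMIs from 28 lesional nuclei. The unnamed subcluster 0 was also higher in the lesion, at 61.6 against 45.7 CPM (log2 0.44, 0.04 to 0.80) in the library labelled control, while the other library had 60.0 against 48.3, with an interval that held 0 (log2 0.33, −0.21 to 0.81). By mouse the lesional level ranged from 58.8 CPM in the female to 18.3 in the male of the library labelled control, and from 27.5 to 9.80 in the mice of the other library, the last on 5 UMIs. In both libraries the female lay above the male, with 1 mouse per sex and library.

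Ntf3, the ligand of TrkC, was lower in the lesion. In excitatory-neuron-like nuclei it stood at 6.61 and 7.90 CPM in the parenchyma of the control and Cxcl12-cKO libraries, on 263 and 308 UMIs, and at 2.38 and 0.957 CPM in the lesion, on 18 and 3 UMIs. Both lesional sums lay below both parenchymal ones. The edgeR fit gave log2 −1.76 ± 0.32 (adjusted p = 0.000103), with 17.0% of 17817 genes called lower and 14.5% higher in this class; without the normalization factors the calls were 4082 lower and 1778 higher, against 3030 and 2577 with them, and Ntf3 remained called under each alternative that gives a test. Summed fibroblast markers in this class were 155 and 92.9 CPM in the lesion and 32.7 and 32.2 in the parenchyma, and their part in the differences of Ntf3 and the other members was not tested.

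**Figure D3:**
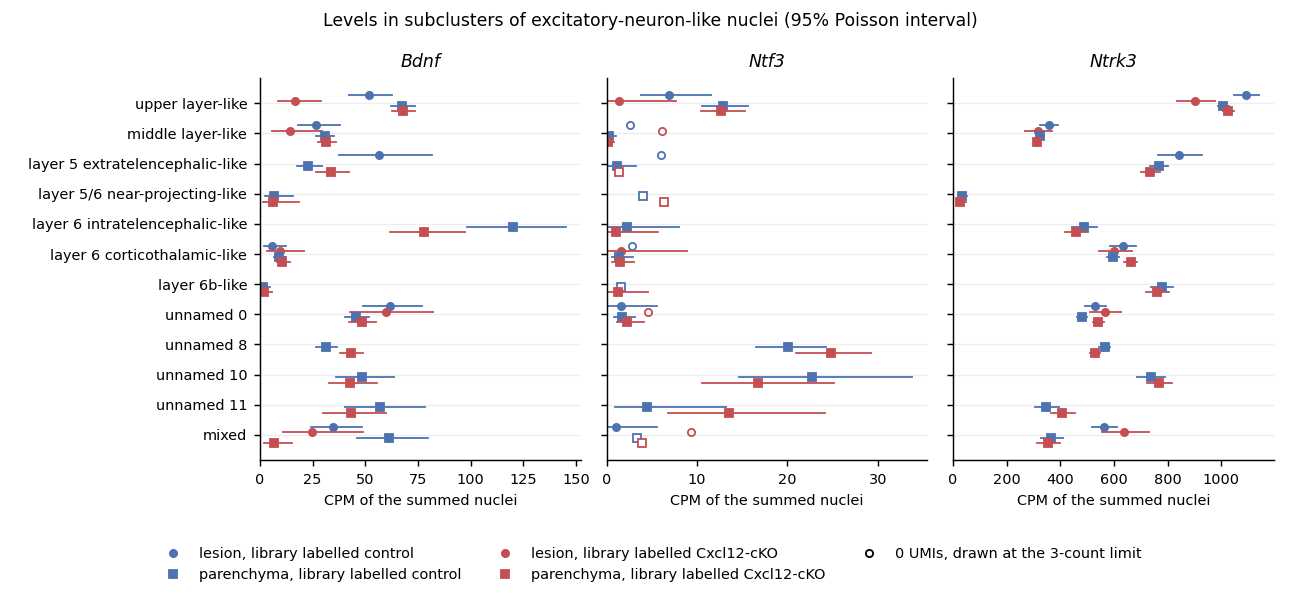
Bdnf, Ntf3 and Ntrk3 in subclusters of excitatory-neuron-like nuclei, in CPM of the summed nuclei, by region and library, with 95% Poisson intervals and open symbols at the limit of 0 UMIs. Subclusters with under 20 nuclei in a sum are not drawn there; Ntf3 is highest in the unnamed subclusters 8 and 10, while Bdnf is highest in layer 6 intratelencephalic-like nuclei.

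The Ntf3 signal came mostly from a few subtypes, and these differed in number between the regions. In the parenchyma it was highest in the unnamed subclusters 8 (20.1 and 24.8 CPM, 106 and 142 UMIs) and 10 (22.7 and 16.7, 24 and 23 UMIs), with upper-layer-like nuclei at 12.9 and 12.7 on 107 and 110 UMIs. Middle-layer-like nuclei stood at 0.275 and 0.146 CPM on 2 UMIs and 1. Subcluster 8 held 546 of 4274 parenchymal but 12 of 737 lesional excitatory-neuron-like nuclei, and subclusters 10 and 11 no lesional nuclei. Within upper-layer-like nuclei Ntf3 was still lower in the lesion, at 6.88 against 12.9 CPM in the library labelled control (log2 −0.87, −1.83 to −0.10) and 1.38 against 12.7 in the library labelled Cxcl12-cKO (log2 −2.62, −8.52 to −0.69, on 1 lesional UMI). So the composition of the class differed along with the gene, and the part of each was not tested.

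Outside excitatory neurons Ntf3 was scarce. Among inhibitory-neuron-like nuclei Pvalb-interneuron-like nuclei held 9 of the 15 and 9 of the 12 parenchymal UMIs, at 5.67 and 5.15 CPM, while striatal-projection-neuron-like nuclei had 0 in 93 and 106 nuclei. Mural-like nuclei had the highest pooled level, 40.3 CPM (16.2 to 83.0), but on 7 UMIs in 6 of 81 nuclei, a share of 7.41% (4.11% after thinning) against 0.334% (0.126%) in myeloid-like nuclei at median depths of 1904 and 2272 UMIs. Fibroblast-like nuclei stood at 1.03 CPM, an interval that overlapped that of myeloid-like nuclei at 1.16.

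Ntrk2 was a gene of the neural and glial classes. Ependymal-like nuclei had the most, 2059 CPM (1916 to 2211, 761 UMIs in 78 nuclei), then astrocyte-like nuclei 1176 (1142 to 1211), inhibitory-neuron-like 807, excitatory-neuron-like 716 and oligodendrocyte-precursor-like 512 (446 to 584). The intervals of these 5 did not overlap. Next came mural-like nuclei at 104, T-cell-like at 87.9, oligodendrocyte-like at 86.9 and fibroblast-like at 77.5 (74.3 to 80.7), each overlapping the next, and below them myeloid-like nuclei at 40.3 (36.8 to 44.1). Ependymal-like and oligodendrocyte-precursor-like nuclei had many high doublet scores, with 43.6% and 63.6% of them in the top 10%.

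In astrocyte-like nuclei the lesion did not differ from the parenchyma in Ntrk2 by the test. The levels were 1200 and 1128 CPM in the lesion and 1572 and 1116 in the parenchyma of the control and Cxcl12-cKO libraries, and edgeR gave log2 −0.30 ± 0.17 (adjusted p = 0.248). Subclusters differed more: the lesional subcluster 3 stood at 866 and 797 CPM, subcluster 5 at 1371 and 1221, and subcluster 4 at 1548 and 1274 in the lesion and 1479 and 1101 in the parenchyma. The subcluster with Bdnf thus also had Ntrk2 above that of subcluster 3 in both libraries, with intervals that did not overlap. Summed astrocyte markers were 3095 and 3341 CPM in subcluster 3 and 7578 and 7999 in subcluster 5.

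Across the 12 parenchymal excitatory subclusters Ntrk2 ranged from 481 CPM in layer 6 intratelencephalic-like nuclei of the library labelled Cxcl12-cKO to 843 in middle-layer-like nuclei of the library labelled control. In the parenchyma Vip-interneuron-like (1123 and 983), Lamp5-interneuron-like (1006 and 979) and Pvalb-interneuron-like nuclei (980 and 974) lay above striatal-projection-neuron-like ones (582 and 538). This order did not hold in the lesion of the library labelled Cxcl12-cKO. There striatal-projection-neuron-like nuclei stood at 1155 CPM in 46 nuclei, a log2 difference from the parenchyma of 1.10 (0.95 to 1.26). Pvalb-interneuron-like ones stood at 1017. The lesion of the library labelled control held 7 striatal-projection-neuron-like nuclei. Lesional excitatory-neuron-like nuclei had 842 and 712 CPM against 736 and 673 in the parenchyma, higher in both libraries, and edgeR gave log2 0.24 ± 0.07 (adjusted p = 0.0130). This small difference depends on scaling, at log2 0.14 and adjusted p = 0.132 without the normalization factors. In inhibitory-neuron-like nuclei the values were 940 and 1037 CPM in the lesion and 784 and 761 in the parenchyma, with log2 0.44 ± 0.21 and an edgeR adjusted p of 0.265, where 1.5% of 13809 genes were called higher and 4.32% lower and no member was called. Of the 4 members that passed the filter on low counts in that class, 0 had an unadjusted edgeR p under 0.05 (the lowest was 0.0680, for Ntrk2), and DESeq2 called 0.

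Ntrk3 was the member most shared between brain cells and scar fibroblasts. Oligodendrocyte-precursor-like nuclei stood at 699 CPM (622 to 784, 298 UMIs), inhibitory-neuron-like at 684 (672 to 696), excitatory-neuron-like at 631 (626 to 636), mural-like at 518 (416 to 636, 90 UMIs), fibroblast-like at 399 (392 to 407) and astrocyte-like at 381 (361 to 401). The first 2 of these overlapped, as did excitatory-neuron-like with mural-like and fibroblast-like with astrocyte-like nuclei. Of the oligodendrocyte-precursor-like nuclei 63.6% had doublet scores in the top 10%. Their summed fibroblast markers were 1224 and 855 CPM in the lesion of the control and Cxcl12-cKO libraries, a part in the Ntrk3 level that was not tested. T-cell-like nuclei followed at 192, and myeloid-like (69.9), osteoblast-like (68.9) and oligodendrocyte-like nuclei (66.2) formed the low end with endothelial-like ones at 27.7. Summed fibroblast markers were 1302 and 650 CPM in lesional T-cell-like and 1219 and 696 in lesional myeloid-like nuclei. In lesional mural-like nuclei of the library labelled control they were 1786 CPM. Their part in the Ntrk3 levels of these classes was not tested.

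Neuron subtypes differed widely in Ntrk3. Upper-layer-like nuclei had 1008 and 1027 CPM in the parenchyma of the control and Cxcl12-cKO libraries, and near-projecting-like nuclei 33.9 and 27.4. Pvalb-interneuron-like nuclei had 1046 and 1135 CPM and Sst-interneuron-like ones 256 and 278. The near-projecting-like nuclei lay below the 69.9 CPM of myeloid-like nuclei in both libraries. Over the whole class lesional excitatory-neuron-like nuclei had 702 and 616 CPM and parenchymal ones 614 and 635, with log2 0.18 ± 0.08 and an edgeR adjusted p of 0.0771. The call changed to adjusted p = 0.0168 without the mixed subcluster and 0.0169 without the top doublet scores, and the library labelled Cxcl12-cKO alone gave log2 −0.04. In inhibitory-neuron-like nuclei Ntrk3 stood at 696 and 853 CPM in the lesion and 692 and 647 in the parenchyma (log2 0.29 ± 0.21, edgeR adjusted p = 0.471). Striatal-projection-neuron-like nuclei, with 1127 and 1111 CPM of Ntrk3 in the lesion, made up 5.04% of the lesional inhibitory-neuron-like nuclei of the library labelled control and 33.3% of those of the library labelled Cxcl12-cKO.

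In astrocyte-like nuclei Ntrk3 was higher in the lesion. It stood at 419 and 407 CPM in the lesion of the control and Cxcl12-cKO libraries, on 633 and 776 UMIs, and at 129 and 96.7 in the parenchyma, on 22 UMIs in each. Both lesional sums lay above both parenchymal sums. The log2 difference was 1.77 ± 0.23 in edgeR (adjusted p = 3.32e-05) and 1.78 in DESeq2 (adjusted p = 0.000514), while Ntrk2 and Sort1 of the same nuclei were not called. In contrast to Bdnf, Ntrk3 was alike in the lesional subclusters 3 (463 and 414 CPM) and 5 (430 and 417). In subcluster 4, present in both regions, it stood at 265 CPM in the lesion (58 UMIs, 61 nuclei) and 111 in the parenchyma (18 UMIs, 33 nuclei) of the library labelled control, a log2 difference of 1.23 (0.47 to 2.11). The other library had 191 CPM in this subcluster on 15 UMIs from 19 lesional nuclei and 82.3 CPM on 18 UMIs from 42 parenchymal ones. Summed fibroblast markers were 310 and 188 CPM in lesional and 153 and 92.3 in parenchymal astrocyte-like nuclei, against 4268 and 3830 in lesional fibroblast-like ones. In subcluster 4 of the library labelled control they were 507 CPM in the lesion and 154 in the parenchyma. Their part in the Ntrk3 level was not tested.

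**Figure D4:**
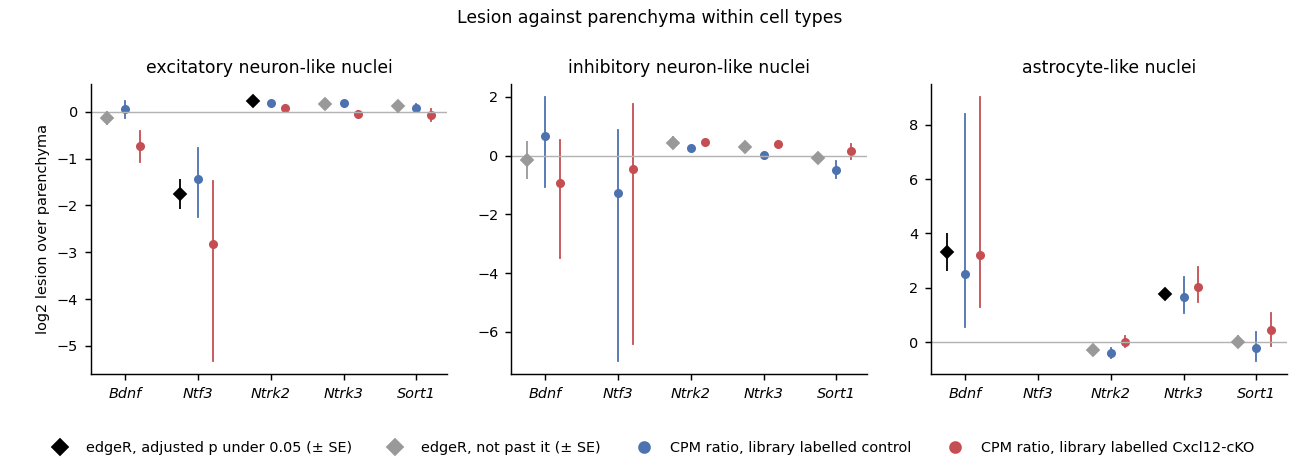
Log2 difference of lesion over parenchyma for the members in excitatory-neuron-like, inhibitory-neuron-like and astrocyte-like nuclei, from edgeR (diamonds, black where the adjusted p is under 0.05, bars ± SE) and as CPM ratios within each library (blue labelled control, red labelled Cxcl12-cKO, bars 95% exact conditional intervals, cut at the axis where unbounded). Axes differ between panels; Ntf3 at −1.76 in excitatory-neuron-like and Bdnf at 3.32 and Ntrk3 at 1.77 in astrocyte-like nuclei lie away from 0 in both libraries.

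Lesional fibroblast-like nuclei, the class that the Cre targets, had Ntrk3 at 434 CPM (6172 UMIs) in the library labelled control and 360 (5251 UMIs) in the one labelled Cxcl12-cKO, with a ratio on the log2 scale of −0.27 (−0.32 to −0.22). The ratio lay below 0 in both sexes, at −0.40 and −0.22, and under the 2-fold limit. Parenchymal fibroblast-like nuclei, 51 and 50 in number, had 536 and 647 CPM, with summed fibroblast markers of 1229 and 1210 CPM against 4268 and 3830 in the lesion. Ntrk2 stood at 83.0 and 73.8 CPM in the lesion and at 22.3 and 23.4 in the parenchyma, there on 5 UMIs in each library. Its log2 differences of lesion over parenchyma were 1.76 (0.67 to 3.52) and 1.52 (0.43 to 3.28). Sort1 stood at 38.3 and 33.5 in the lesion and at 71.5 and 84.4 in the parenchyma, there on 16 and 18 UMIs. Its log2 differences were −0.94 (−1.61 to −0.08) and −1.37 (−2.01 to −0.57). No test between regions was run in this class.

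The 4 fibroblast states differed in Ntrk3 in the same order in both libraries except for the late-inner-like and leptomeningeal-like state 3 pair. Dural-like nuclei had 567 and 462 CPM, late-inner-like 393 and 403, leptomeningeal-like state 3 400 and 292, and leptomeningeal-like state 2 268 and 219. Ntrk2 was also highest in dural-like nuclei, at 109 and 113 CPM, and lowest in leptomeningeal-like state 2 of the control library (46.8) and state 3 of the Cxcl12-cKO library (38.8). Sort1 was lowest in late-inner-like nuclei, at 29.0 and 19.7 CPM, and highest in leptomeningeal-like state 2, at 48.6 and 44.5. These states are drawn with a resolution that matters: at resolution 0.5 an unnamed subcluster (Kctd8, Col6a5) had the highest Ntrk3, 719 CPM (692 to 746), above late-inner-like nuclei at 482 and dural-like ones at 381.

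Bdnf in fibroblast-like nuclei was low but concentrated. In the lesion it stood at 3.38 CPM on 48 UMIs and 6.79 on 99 UMIs in the libraries labelled control and Cxcl12-cKO, with 0 UMIs in the 101 parenchymal nuclei. A UMI was seen in 1.45% of lesional nuclei (0.587% thinned) at a median depth of 3074, against 0.632% (0.18% thinned) in lesional myeloid-like nuclei. At resolution 0.5 a single unnamed subcluster led by Ebf3 and Col24a1 held 56 of the 147 UMIs in 796 nuclei, at 11.4 and 19.6 CPM in the libraries labelled control and Cxcl12-cKO, in 12 and 30 nuclei with a UMI. The other 6 subclusters ranged from 2.63 to 5.84 CPM. This subcluster was singled out after its values were seen.

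**Figure D5:**
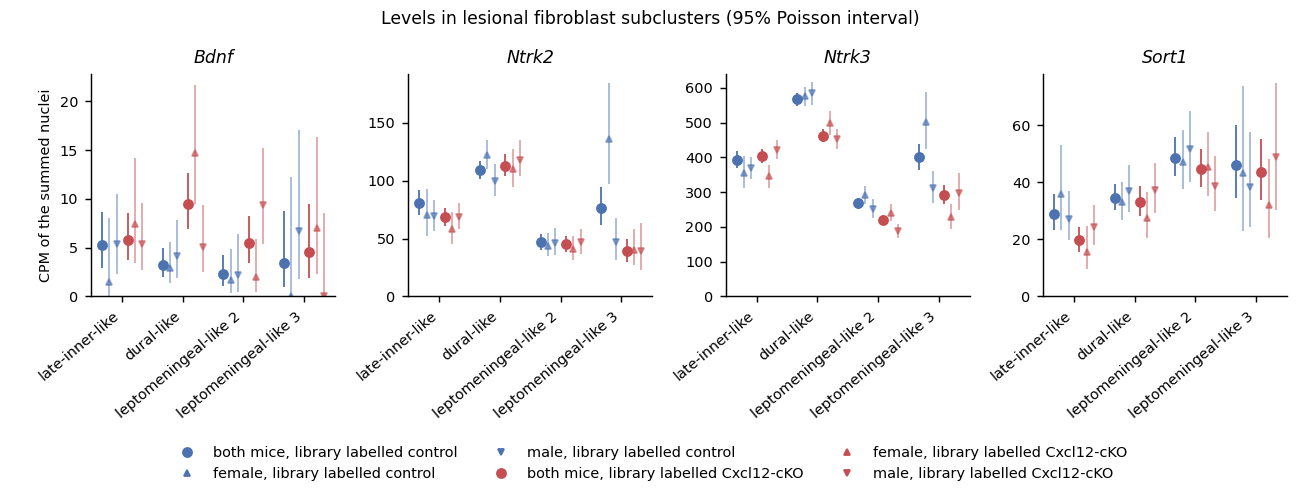
Bdnf, Ntrk2, Ntrk3 and Sort1 in the 4 lesional fibroblast subclusters, in CPM of the summed nuclei with 95% Poisson intervals, for both mice of a library (circles) and for nuclei assigned to the female or male mouse (triangles), blue labelled control and red labelled Cxcl12-cKO. Ntrk3 is highest in dural-like nuclei of both libraries (567 and 462 CPM), and Ntrk2 is also highest there (109 and 113 CPM).

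Sort1 had the flattest profile of the well-covered members. Oligodendrocyte-like (178 CPM, 159 to 200), mural-like (173), astrocyte-like (163), excitatory-neuron-like (155, 153 to 158) and ependymal-like nuclei (143) stood together, each overlapping the next. Inhibitory-neuron-like nuclei followed at 102 (97.2 to 106), then endothelial-like at 89.4, myeloid-like at 80.2, osteoblast-like at 51.5, oligodendrocyte-precursor-like at 37.6, fibroblast-like at 36.5 and T-cell-like nuclei at 20.3. Within the oligodendrocyte-like nuclei Sort1 differed between subclusters in both libraries: in the lesion subcluster 0 had 238 and 264 CPM on 93 and 123 UMIs, and subcluster 2, led by Bmp4 and Enpp6 (genes of newly forming oligodendrocytes), 26.6 and 53.8 CPM on 7 and 19 UMIs, near the precursor-like level. In excitatory-neuron-like nuclei edgeR gave log2 0.12 ± 0.08 for lesion over parenchyma (adjusted p = 0.321), in inhibitory-neuron-like −0.08 ± 0.21 (adjusted p = 0.855) and in astrocyte-like 0.01 ± 0.24 (adjusted p = 0.991).

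Ngfr, the p75 receptor gene, was nearly absent at this depth. Fibroblast-like nuclei held 8 of its 19 UMIs, 4 in each library, at 0.281 and 0.274 CPM of the lesion. Excitatory-neuron-like nuclei held 4, myeloid-like 3, inhibitory-neuron-like 2, astrocyte-like 1 and osteoblast-like 1. No class in a region and library stood above 1.03 CPM, and with these counts neither types, regions nor libraries could be compared.

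Between the libraries few members differed by more than 2-fold. A ratio of CPM, Cxcl12-cKO over control, with 0.5 added to each sum, was read in the 40 pairs of a member and a class in a region with at least 50 UMIs, out of 17 class sums. The median log2 ratio was −0.06 and the range −1.32 to 1.00. Past a 2-fold limit lay 2 of the 40, against 1.78% of 101430 gene and class pairs of all genes. Both were lower in osteoblast-like nuclei of the library labelled Cxcl12-cKO, Ntrk3 at 78.5 against 29.6 CPM (log2 −1.32, −2.77 to −0.29) and Sort1 at 57.9 against 25.4 (log2 −1.09, −2.69 to 0.02), on 7 and 6 UMIs. Nothing about the members is read from 2 in 40, and with 1 library per genotype genotype and library cannot be told apart.

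Bdnf lay nearest the limit. In lesional fibroblast-like nuclei it was 2.00-fold higher in the library labelled Cxcl12-cKO (log2 1.00, 0.50 to 1.54), just under the limit before rounding. Dural-like nuclei were past it, at 3.23 against 9.47 CPM (log2 1.53, 0.77 to 2.39, 20 and 46 UMIs). The state that holds the difference depends on the resolution. At resolution 0.5 the dural-like subcluster had 2.35 and 3.83 CPM on 10 UMIs in each library, with overlapping intervals. The unnamed subcluster led by Ebf3 and Col24a1 had 11.4 and 19.6 CPM on 14 and 42 UMIs. The mice did not show the difference of fibroblast-like nuclei evenly. The fibroblast log2 ratio was 1.86 (0.97 to 2.91) between the females and 0.49 (−0.27 to 1.31) between the males. In lesional excitatory-neuron-like nuclei Bdnf was lower, at log2 −0.73 (−1.11 to −0.37), and in parenchymal inhibitory-neuron-like nuclei higher, at 0.99 (0.16 to 1.93), the class in which 1 nucleus held 17 of 40 UMIs. Among excitatory subclusters, lesional upper-layer-like nuclei were past the limit at log2 −1.58 (−2.63 to −0.77, 105 and 12 UMIs). So was the parenchymal mixed subcluster, at −3.11 (−4.91 to −1.92, 54 and 5 UMIs). Parenchymal excitatory-neuron-like nuclei, with 1554 and 1587 UMIs, differed by 0.06 (−0.04 to 0.16). Sort1 also came near the limit, in parenchymal oligodendrocyte-like nuclei at log2 −0.99 (−1.86 to −0.20) on 40 and 20 UMIs. In subcluster 0 of these nuclei it was past the limit, at −1.20 (−2.07 to −0.41).

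The other genes of the pathway were read from a list of 42: further ligands and receptors, processing and secretion genes, and adaptors and signalling genes. Of 315 pairs with enough UMIs 11 were past the 2-fold limit between the libraries, 6 higher and 5 lower in the library labelled Cxcl12-cKO, beside the 1.78% of all gene and class pairs. The share of all genes past the limit differed between the classes these pairs come from, from 0.992% in lesional fibroblast-like to 10.3% in parenchymal oligodendrocyte-like nuclei, and nothing about the list is read from its count. Sh2b2, an adaptor of Trk receptors, was higher in lesional fibroblast-like nuclei, at 15.4 against 7.03 CPM (log2 1.13, 0.79 to 1.49). In lesional inhibitory-neuron-like nuclei the secretion gene Cadps2 (log2 −1.49) and the proprotein convertase gene Pcsk5 (−1.42) were lower and Lingo1, a partner of p75, higher (1.04). In that class 5.21% of all genes were past the limit, and the share of striatal-projection-neuron-like nuclei, 5.04% against 33.3%, differed along with these genes, a part that was not tested. Pcsk5 was also lower in T-cell-like nuclei (−1.92), where 4.12% of all genes were past it. Also past the limit were Cadps2 in endothelial-like (1.05), Kidins220 in parenchymal oligodendrocyte-like (−1.14), Shc3 in oligodendrocyte-precursor-like (1.20), and Cpe (−1.03) and Plat (1.34) in osteoblast-like nuclei.

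Between the regions the same list was counted beside the share of all genes called. In excitatory-neuron-like nuclei edgeR called 11 of 38 tested genes higher in the lesion and 5 lower, beside 14.5% and 17.0% of all genes, with a median log2 of 0.09 against −0.05 over all genes. Without the normalization factors these were 9 higher and 7 lower with a median of −0.02, so the split depends on scaling. DESeq2 called 6 higher and 1 lower. Among the higher were the sortilin relatives Sorl1 (log2 0.62), Sorcs3 (0.42) and Sorcs1 (0.34) and the signalling genes Gab1 (1.14), Pik3r1 (0.52) and Grb2 (0.46). Lower were Bex3, an adaptor that binds p75 (−1.0), Vgf, a secreted peptide gene known to respond to neurotrophins (−0.86), Maged1 (−0.51), Pcsk5 (−0.29) and Pcsk6 (−2.35). In inhibitory-neuron-like nuclei 1 of 37 was called, Bex3 lower at −1.37, beside 1.5% of all genes higher and 4.32% lower, and DESeq2 called 0. In astrocyte-like nuclei 6 of 29 were higher, among them Sorcs1 (4.44), Pcsk5 (4.04), Sorcs3 (3.14), Gab1 (0.92) and Sorl1 (0.88), and 4 lower, beside 10.7% and 9.63% of all genes (7 and 2 without the normalization factors, 2 and 1 by DESeq2). The lower ones were Cpe (−1.39), Shc3 (−0.87), Pcsk6 (−0.83) and Kidins220 (−0.55). Pcsk5 was thus called in opposite directions in excitatory-neuron-like and astrocyte-like nuclei, a difference that was not itself tested.

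Genes with the profile most like each member's were looked up over 41 sums of a class in a region of a library, among 13832 genes with at least 500 UMIs, as a description. The sums share libraries and depth. Ntrk2 was most like Mapk10 (Pearson r = 0.932), Trim9 (0.913) and Fmn2 (0.91), and Ntrk3 most like Gucy1a2 (0.873), Rgs7bp (0.866) and Nmnat2 (0.809). Bdnf (4122401K19Rik 0.723, Syt17 0.718, Gm32718 0.705), Sort1 (Slc48a1 0.715, Tmod2 0.714, Arhgef37 0.696) and Ntf3 (A530046M15Rik 0.706, Fam241b 0.663, Gm28578 0.659) had no gene as close. Ngfr had too few UMIs for this.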

How the data were processed

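Nuclei of lesion and parenchyma were profiled by 3′ single-nucleus RNA sequencing in 1 library per genotype. The deposited UMI counts per gene and barcode were made by the authors with Cell Ranger 9.0.0 on GRCm39, per the submitters' processing notes; no source used here says whether introns were counted.

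Barcodes outside the 2.5 percentile at either end were removed (kept: 757.2 to 36243.8 UMIs, 584.2 to 6418.6 genes, up to 8.75% mitochondrial). Nuclei were clustered with scanpy 1.11.5 (30 components, 3000 variable genes, 2000 within classes, 20 neighbours, resolution 0.25, glia 0.5, seed 1) and named from marker lists. The naming thresholds (detection in 10%, a mean log2 of 0.5, mixed where 9 of 10 leading genes were higher in another class) and the glial resolution were set after clusters were seen. Scrublet scores were computed and doublets were not removed; nuclei were assigned to the female or male mouse by sex-linked genes. Members and lists were chosen with earlier results of these data known.

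Levels, shares and library ratios (0.5 added to each sum, at least 50 UMIs, 2-fold limit) came from summed nuclei. Shares were also taken after thinning to 1000 UMIs, without the nuclei that had fewer. Lesion and parenchyma were compared with edgeR 4.0.16 (quasi-likelihood test, library as block, Benjamini-Hochberg adjustment), with DESeq2 1.42.0 as an alternative. The edgeR fit was also run on simulated data. These had the same spread for every gene and no library effect, so they did not try the block or genes of unlike spread. Named were the members, the list genes past the limit or called, and the 3 genes most like each member. Some genes of the list are counted but not reported here. Alternatives were other clusterings, scalings, filters, doublet removal, single mice and single libraries.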

Additional observations from a re-analysis of the deposited data

Results flagged for a closer look

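In lesional astrocyte-like nuclei the Bdnf ratio of the libraries, Cxcl12-cKO over control, went opposite ways in the sexes. It was log2 −0.67 (−1.31 to −0.06) between the females, on 58 control and 38 Cxcl12-cKO UMIs, and log2 1.82 (0.79 to 3.19) between the males, on 8 and 44 UMIs. There is 1 mouse per sex and library, and the difference was not tested.

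The 1746 barcodes outside the filter also held member UMIs. There Ntf3 had a log2 ratio of 0.63 (0.23 to 1.05), on 86 control and 129 Cxcl12-cKO UMIs, and Ntrk3 one of 0.04 on 10278 and 10190 UMIs. These barcodes enter only the alternative without the barcode filter.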

How the results depend on the processing

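Of 835 member levels recomputed under alternatives 641 stayed inside the main interval, and of 326 library ratios 305 stayed on the same side of the 2-fold limit, with 0 reversed. Without the barcode filter, and with the classes before glial and vascular nuclei were split, 3 of 5 members kept their highest class. That ranking took only types with at least 100 nuclei. Mural-like, ependymal-like and oligodendrocyte-precursor-like nuclei were left out, so their first places above were not checked. In it Ntf3 was highest in excitatory-neuron-like, Ntrk2 in astrocyte-like and Ntrk3 in inhibitory-neuron-like nuclei. The 2 library ratios past the limit became 4 at resolution 0.5, 1 in males, 1 with the mean of single-nucleus CPM, 1 with 1 added to each sum, 6 with at least 20 UMIs, 9 at 1.5-fold and 0 at 3-fold. At resolution 0.5, 1 of 4 members (Sort1) kept its highest named fibroblast state; Bdnf moved to leptomeningeal-like, Ntrk2 and Ntrk3 to late-inner-like nuclei. The single males-only call was Bdnf in lesional astrocyte-like nuclei (log2 1.82), and the females gave Bdnf in lesional excitatory-neuron-like (−1.09) and fibroblast-like nuclei (1.86). For the region difference in excitatory-neuron-like nuclei DESeq2 called 2169 genes (edgeR 5607), for the region difference in inhibitory-neuron-like nuclei 285 (804) and for that in astrocyte-like nuclei 733 (1967). In the inhibitory class no filter gave 1626, removal of high Scrublet scores 441 and removal of the mixed subcluster 1232. Without TMM factors, an alternative added after seeing the data as was removal of the mixed subcluster, 1 excitatory member was called and with DESeq2 1 astrocyte member, against 2 in each.

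With 1 library left out there is no test. In excitatory-neuron-like nuclei the log2 values were −0.72 to 0.07 for Bdnf, −2.82 to −1.44 for Ntf3, −0.04 to 0.19 for Ntrk3, 0.08 to 0.19 for Ntrk2 and −0.06 to 0.08 for Sort1. In inhibitory-neuron-like nuclei they were −0.93 to 0.65 for Bdnf, 0.26 to 0.45 for Ntrk2, 0.01 to 0.40 for Ntrk3 and −0.48 to 0.14 for Sort1. In astrocyte-like nuclei they were 2.49 to 3.21 for Bdnf, −0.39 to 0.01 for Ntrk2, 1.67 to 2.04 for Ntrk3 and −0.20 to 0.43 for Sort1. Without the library block, the pairing of regions within a library, Ntf3 in excitatory-neuron-like (adjusted p = 0.000969) and Bdnf (0.00242) and Ntrk3 (4.99e-05) in astrocyte-like nuclei were still called by edgeR. The causes of these changes were not tested. Astrocyte-like nuclei of the parenchyma numbered 35 and 44, which limits that comparison.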
